A study of Mus musculus with 22 samples.

Results

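To describe the widest H3K4me3 promoter marks of maturing red cell precursors, ChIP-seq peak lists from mouse G1ER (G1E-ER4) cells were analyzed for broad H3K4me3 promoter domains. The 10 H3K4me3 lists were merged where they touch, and the domains were chosen by measured peak length. A domain had to hold the transcription start site (TSS) of a GENCODE protein-coding gene and a single H3K4me3 peak of 4000 bp or longer in every one of the 10 lists. This rule kept 685 of 16244 merged H3K4me3 regions. The remaining 8092 merged regions that held such a TSS and had a peak in all 10 lists are called other promoter regions and are given beside the domains. G1ER cells are a subclone of the Gata1-null erythroid progenitor line G1E and constitutively express GATA1 fused to an estrogen receptor part, so that every group shared the loss of endogenous Gata1, the fusion protein and growth in stem cell factor and erythropoietin. The groups differed in antibody and in the hours of β-estradiol (0, 2, 6, 12 and 24 h), which activates the fusion protein and starts erythroid differentiation. H3K4me3 and H3K27ac had 2 lists per time point, and CTCF had 1 list each at 0 and 24 h. The study describes the replicates of the histone marks as independent experiments. All samples came from this 1 cell line.

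H3K4me3 is written by the SET1 and MLL methyltransferase complexes at the starts of active genes, and CpG islands, which are promoter stretches rich in unmethylated CG pairs, recruit these complexes. Most promoters carry a narrow H3K4me3 peak, while broad domains are known at genes of cell identity, growth control and very active transcription. H3K27ac is written by p300 and CBP at active promoters and enhancers, and CTCF is a zinc finger protein bound at insulators and loop anchors.

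The lists hold peak positions and scores but no reads, so depth per sample is unknown. H3K4me3 lists held 12925 to 14452 peaks and H3K27ac lists 17247 to 18333 peaks. In none of the 20 histone lists was a peak longer than 9200 bp, and the longest peak of each list measured 8769 to 9200 bp. Whether a maximum length was set is not stated in the sources used here. Promoters with peaks of 8 kb in most lists could have no peak at all in another. So could some with shorter peaks, such as an Ldb1 promoter with peaks of at most 4644 bp (chr19:46036264-46040950). The adjoining Ldb1 region (chr19:46041050-46046751), with peaks of at most 5702 bp, had none in the same list, replicate 2 at 24 h. A missing peak is therefore given here as not listed and does not show that the mark was absent. Of 8 erythroid progenitor markers, 5 had H3K4me3 at a TSS in all 10 lists, Gfi1b had it in 9 and Kit in 8. Cbfa2t3, counted among the 5, had another TSS region with a peak in 9 lists. Tal1 had no H3K4me3 region at its TSS in any list. All 14 markers of T cells, B cells, hepatocytes, muscle, neurons and pluripotent cells lacked an H3K4me3 region.

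The bases before the TSS are shown for 5 domains with 1 gene, to let the CpG content of the longest domains be seen beside that of domains whose H3K27ac differed between 24 h and 0 h. Capitals mark CG pairs, all other bases are in lower case, and each run is the 200 bases 5′ of the TSS on the gene's own strand, read from the RefSeq copy of GRCm38 (mm10). Ccnd2 and Arid1a were among the 3 domains with 1 gene that had the longest H3K4me3 peaks. Alad, Adk and Tpm1 had the smallest p-values in the H3K27ac test among such domains whose window holds no annotated exon. Adk entered that test through its lists at 0 h alone. The positions are chr6:127151061-127151260, minus strand, for Ccnd2 and chr4:133753612-133753811, minus strand, for Arid1a. Those of the others are chr4:62519919-62520118, minus strand, for Alad, chr14:21075952-21076151, plus strand, for Adk, and chr9:67043963-67044162, minus strand, for Tpm1.
Ccnd2: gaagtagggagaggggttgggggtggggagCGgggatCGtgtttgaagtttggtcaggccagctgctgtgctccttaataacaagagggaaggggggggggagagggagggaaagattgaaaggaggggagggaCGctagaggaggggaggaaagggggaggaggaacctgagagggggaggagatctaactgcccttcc
Arid1a: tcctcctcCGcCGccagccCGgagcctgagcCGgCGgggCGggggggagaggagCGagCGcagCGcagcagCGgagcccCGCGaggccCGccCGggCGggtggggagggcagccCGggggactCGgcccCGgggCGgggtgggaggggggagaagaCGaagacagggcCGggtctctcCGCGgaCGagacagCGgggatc
Alad: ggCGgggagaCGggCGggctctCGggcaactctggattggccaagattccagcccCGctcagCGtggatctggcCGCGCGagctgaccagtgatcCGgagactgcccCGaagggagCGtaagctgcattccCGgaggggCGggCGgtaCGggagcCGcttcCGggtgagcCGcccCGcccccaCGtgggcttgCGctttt
Adk: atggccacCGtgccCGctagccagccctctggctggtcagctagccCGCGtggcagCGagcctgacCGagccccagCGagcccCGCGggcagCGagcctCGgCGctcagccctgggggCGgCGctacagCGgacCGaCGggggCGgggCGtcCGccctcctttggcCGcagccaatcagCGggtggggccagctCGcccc
Tpm1: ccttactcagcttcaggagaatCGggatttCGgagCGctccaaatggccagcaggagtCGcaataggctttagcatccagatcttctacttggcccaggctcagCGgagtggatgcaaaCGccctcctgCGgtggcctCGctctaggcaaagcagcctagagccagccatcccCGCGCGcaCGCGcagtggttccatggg

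Upstream sequence differed even between the longest of these domains. The window held 3 CG pairs at Ccnd2, where a purine-rich stretch fills most of it, and 25 at Arid1a. Alad held 22, Adk 23 and Tpm1 13. Over the 518 domains with 1 gene outside chromosome 18, which was left out here, the window held a median of 17 CG pairs (range 0 to 44). The median GC content was 66.0%.

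The domains were long at every time point, as the rule requires. The median over the 10 lists of the longest peak in a domain ranged from 4132 to 8404 bp, with a median of 5114 bp over the 685 domains and 2514 bp over the other promoter regions. Within single lists the median domain measured 4833 to 5357 bp. By time, the median domain measured 5230 ± 180 bp (SD, n = 2) at 0 h, 5087 ± 252 bp after 2 h, 5005 ± 243 bp after 6 h, 5108 ± 48.8 bp after 12 h and 5251 ± 9.90 bp after 24 h. The highest and the lowest of these means differed by less than the SD at 2 h. Long peaks were not those with the highest scores. The peak caller's score of the median domain stood at the 46.1 to 49.8 percentile of its own list, and that of the median other promoter region at the 67.1 to 70.8 percentile. The rule turned on small differences at its lower end. Just inside it, the shortest of the 10 peaks measured 4002 bp at Dr1 and Dedd, 4003 bp at Fth1 and Picalm and 4004 bp at Hspa9. Just outside, it measured 3998 bp at Cdk2ap1, 3997 bp at Nfya/Oard1, 3993 bp at Foxh1/Ppp1r16a, 3991 bp at Eef1b2/Ndufs1 and 3990 bp at Rpl30.

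H3K4me3 reached further into the gene than away from it. In the 529 domains with 1 gene, the longest peak extended a median of 3686 bp downstream of the TSS and 1440.5 bp upstream, beside 1550 and 819 bp in the other promoter regions with 1 gene. The share of regions that were longer downstream was 89.8% of the domains and 90.8% of the others, so that the direction was shared and the extent differed. The downstream edge also moved more between lists. Its SD over the 10 lists had a median of 219 bp in the domains, against 106 bp for the upstream edge. Among the longest domains the shape varied. The peak at Lyl1 lay 654.5 bp upstream and 7347.5 bp downstream of the TSS, whereas that at Runx1 lay 4511 bp upstream and 3514 bp downstream. At 3 kb into the gene, 78.7% of the domains were inside an H3K4me3 peak in the mean list, against 4.70% of the others. At 2 kb before the TSS the shares were 26.1% and 2.42%.

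**Figure D1:**
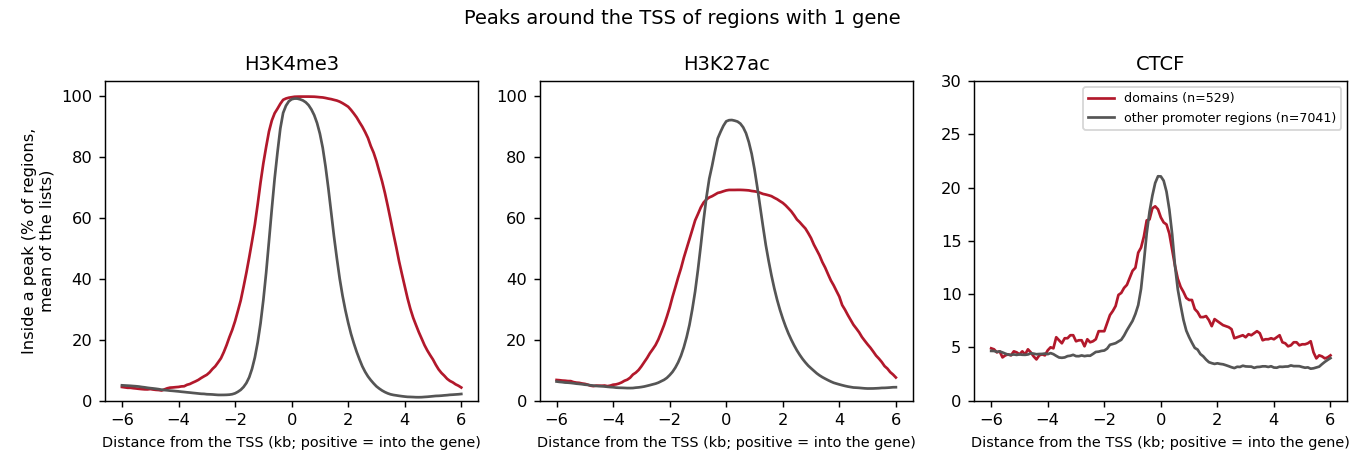
Share of regions with 1 gene that lay inside a peak (%, mean of the lists of a mark) by distance from the TSS in kb, positive into the gene, for 529 domains (red) and 7041 other promoter regions (grey). The H3K4me3 and H3K27ac curves of the domains extend mainly into the gene, and the H3K27ac curve of the domains reached at most 69.2% against 92.2% for the others.

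The 10 longest domains held genes of growth control, chromatin and fetal RNA binding together with 2 hematopoietic transcription factors. Brd2/H2-DMa (chr17:34115615-34124642) was the longest, with H3K4me3 peaks of 8937 and 8743 bp before induction (0 h), 8343 and 8520 bp after 2 h, 8843 and 8150 bp after 6 h, 7894 and 8465 bp after 12 h and 8314 and 8204 bp after 24 h. Brd2 encodes a bromodomain protein that reads acetylated histones, and H2-DMa a chaperone of MHC class II. Ccnd2 (chr6:127147231-127156327), which encodes cyclin D2, a driver of G1 progression, ranged from 7959 to 8908 bp. Igf2bp1 (chr11:96000193-96008785), a fetal mRNA-binding protein, measured 6682 bp in 1 list at 6 h and 8022 to 8426 bp in the other 9. Arid1a (chr4:133749119-133758216), a subunit of the BAF chromatin remodeler, ranged from 8125 to 9098 bp, the latter at 24 h. Igf2bp3 (chr6:49212472-49221035), a relative of Igf2bp1, varied most, with 4048 bp in 1 list at 2 h, 7008 bp in 1 at 6 h and 7949 to 8409 bp in the rest.

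Ppp1r15b (chr1:133128676-133137968), a subunit that directs a phosphatase to the translation factor eIF2α, had peaks of 7949 to 8462 bp up to 6 h, 8984 and 8079 bp after 12 h and 9067 and 9200 bp after 24 h. The last of these was the longest H3K4me3 peak of all lists. Fzd7 (chr1:59480145-59488466), a Wnt receptor, had a median of 8110 bp, Runx1 (chr16:92692286-92700876), a regulator of blood stem cells and megakaryocytes, 8046 bp, Lyl1 (chr8:84700600-84709038), a partner of LMO2 in early blood cells, 7974.5 bp and Zfp36l1 (chr12:80109170-80117738), an mRNA decay factor, 7959.5 bp. Runx1 and Lyl1 stayed between 7608 and 8537 bp in all lists.

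**Figure D2:**
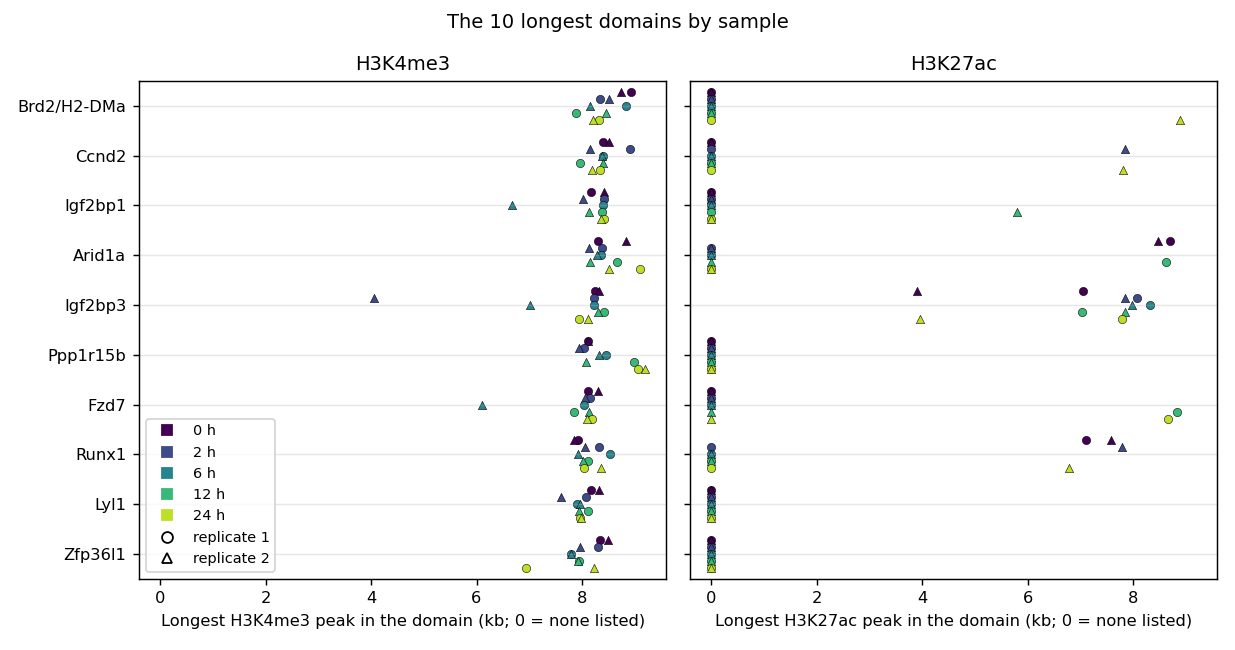
Longest H3K4me3 peak (left) and longest H3K27ac peak (right) in kb in the 10 longest domains, 1 point per list, colored by hours of β-estradiol, with circles for replicate 1 and triangles for replicate 2. H3K4me3 lay near 8 kb in nearly all lists, while the H3K27ac peaks were of 3895 to 8896 bp or not listed at all (drawn at 0), often in 1 replicate of a time point only.

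Gene lists were then set against the domains. Over all genes, 848 of the 9697 with a TSS in a promoter region marked in all 10 lists (8.74%) lay in a domain. The shares below are descriptions without a test, since both the lists and the domains were chosen with results of these data known. RNA splicing and RNA-binding genes had the highest share, with 23 of 36 (63.9%). They included the splicing factors Srsf1, Srsf2 and Srsf3, 9 Hnrnp genes that package nascent RNA, Ptbp1, Npm1 and Ncl, with a median of 7222.5 bp at Hnrnpa2b1, 6795.5 bp at Ptbp1 and 4738.5 bp at Hnrnpa0. Growth control genes followed with 11 of 24 (45.8%). Besides Ccnd2, Ccnd3 and Cdk6, which drive G1, they held the oncogene Myc (chr15:61983199-61990560, 6739 to 7357 bp in the 10 lists), the proliferation marker Mki67 and the brakes Trp53 and Cdkn2c. Trp53 shares its domain with Wrap53 (chr11:69575880-69583473) and measured 6167 and 6327 bp at 0 h and 7481 and 7267 bp at 24 h.

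Erythroid and hematopoietic transcription factors lay in domains in 11 of 26 cases (42.3%). These were Runx1, Lyl1, Zbtb7a, which silences fetal globin, Ikzf1, Myb, which maintains progenitor growth, Klf13, Lmo4, Hhex, Cebpb, Lmo2 and Klf3, in order of length from 8046 to 4915 bp. A further 6 genes of this list had a region in some lists only, and 11 had none. Immediate early and stress genes lay in domains in 10 of 25 cases (40.0%), with Junb, Egr1 and Ier2, which respond to growth signals within minutes, Pim1, Mcl1 and Sgk1 among them. For heme, globin and red cell membrane genes the share was 9 of 29 (31.0%). Among them were the heme enzyme Alad, the transferrin receptor Tfrc, the iron transporter Slc11a2, the ferritin genes Fth1 and Ftl1, Sptb (β-spectrin), Rhag and Car1. Chromatin regulators gave 14 of 49 (28.6%), led by Brd2 and Arid1a, and cytokine and JAK-STAT genes 7 of 28 (25.0%), which were Cish, Csf2rb2, Sh2b3, Spred1, Socs2, Jak2 and Epor. Of 39 Hox genes, 6 had a promoter region in all lists, and only Hoxc4 (chr15:103033702-103039398) lay in a domain.

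Width at 24 h was next set beside width at 0 h, as a description, because these peaks chose the domains. Both lists at 24 h were longer than both at 0 h in 160 domains (23.4%), beside 1907 of all 11506 H3K4me3 regions with a peak in every list (16.6%). Both were shorter in 150 domains (21.9%), beside 25.0% of those regions. With lists scaled to the same median length, the counts were 198 longer and 124 shorter, beside 20.0% and 22.2% of all these regions. The median difference was 2.5 bp in the domains, and differences ran from 2959 bp shorter to 2950 bp longer.

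The heme and membrane list had 4 of 10 domains longer at 24 h and 0 shorter, with a median difference of 388 bp. The medians of the other 7 lists lay below 0. Growth control had 5 of 11 domains longer and 3 shorter, hematopoietic transcription factors 3 of 11 and 3, RNA splicing 3 of 23 and 4, cytokine and JAK-STAT genes 2 of 7 and 4, chromatin regulators 1 of 14 and 3, immediate early genes 0 of 10 and 3, and Hox genes 0 of 1 and 0. Sptb (chr12:76704506-76711789), whose product joins the red cell membrane to its skeleton, had peaks of 4351 and 4615 bp before induction, 4830 and 4472 bp after 2 h, 4762 and 4794 bp after 6 h, 5822 and 5833 bp after 12 h and 7127 and 6783 bp after 24 h. Its lists at 12 and 24 h lay above all 6 earlier ones. At Lmo2 (chr2:103968082-103973792), a bridging protein of the GATA1 complex, the peaks measured 4773 and 4963 bp before induction, 4882 to 4976 bp after 2 and 6 h, 5372 and 5163 bp after 12 h and 5700 and 5495 bp after 24 h, again with no overlap between the late and the earlier lists. Epor (chr9:21959069-21964518), the erythropoietin receptor, measured 4234 to 4907 bp in the 8 lists up to 12 h and 5233 and 5285 bp at 24 h. Myb (chr10:21155655-21162601) ran the other way, with 6671 and 6717 bp at 0 h and 5778 and 5739 bp at 24 h. Sh2b3, a brake on JAK2 signaling, measured 6294 and 6445 bp at 0 h and 4836 and 5475 bp at 24 h. Runx1 and Lyl1, the longest of these domains, were near 8 kb at both times. Runx1 measured 7881 ± 58.0 bp before induction and 8197 ± 221 bp after 24 h, and Lyl1 8179 and 8331 bp before and 7971 and 7978 bp after.

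**Figure D3:**
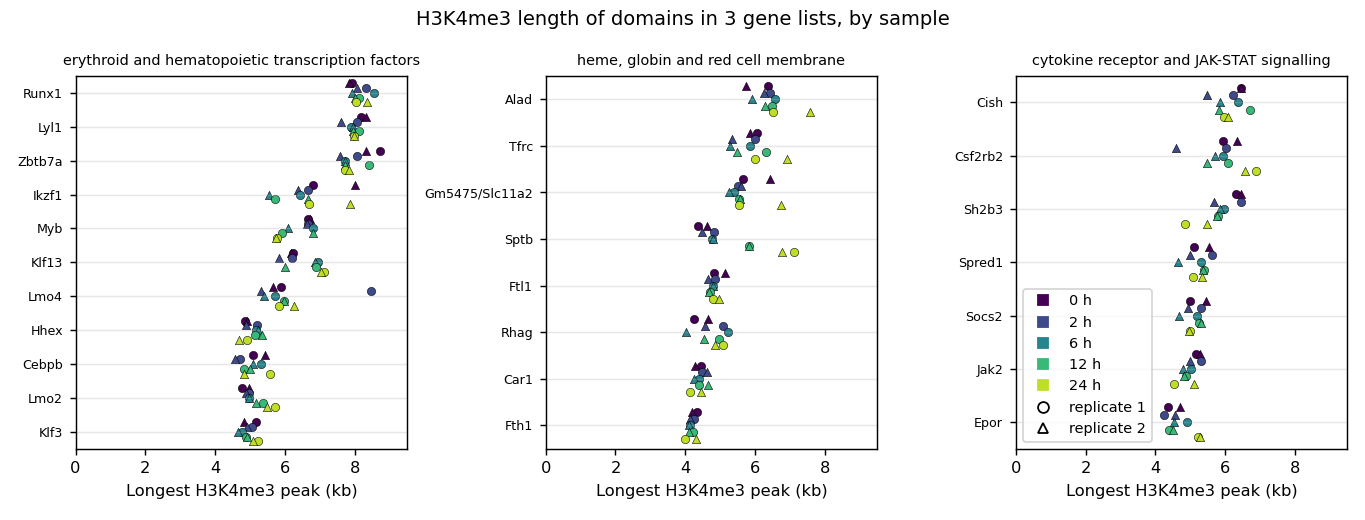
Longest H3K4me3 peak in kb of domains in 3 gene lists (erythroid and hematopoietic transcription factors, heme, globin and red cell membrane genes, cytokine receptor and JAK-STAT genes), 1 point per list, colored by hours of β-estradiol, with circles for replicate 1 and triangles for replicate 2. Sptb, Lmo2 and Epor show their longest peaks at 24 h and Myb and Sh2b3 their shortest.

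Large differences were also found outside the lists, at domains picked after their values were seen. Adk (chr14:21073551-21081834), adenosine kinase, measured 4383 and 5233 bp before induction, 7186 and 5754 bp after 6 h, 7342 and 7050 bp after 12 h and 7758 bp in both lists at 24 h. Fam78a (chr2:32077752-32085521) stayed at 4932 to 5252 bp in the 8 lists up to 12 h and measured 7681 and 7700 bp at 24 h. Pdzd8, a lipid transfer protein of the endoplasmic reticulum, measured 5741 to 6864 bp up to 12 h and 8492 and 8330 bp at 24 h. Hspa5, the chaperone BiP, measured 5618 and 5291 bp at 0 h and 6850 and 7699 bp at 24 h. In the other direction, Nab2/Nemp1 (chr10:127661090-127669875) measured 8738 and 5759 bp at 0 h, a wide spread between replicates, and 4302 and 4277 bp at 24 h, the 2959 bp difference given above. Fut8 (chr12:77236682-77244651), which adds core fucose to glycoproteins, measured 7280 and 7929 bp before induction, 5508 and 5469 bp after 12 h and 4810 and 4998 bp after 24 h. Mlec, a lectin of the endoplasmic reticulum, measured 7680 and 7929 bp at 0 h and 5349 to 5733 bp in the 8 later lists. Mid1ip1 measured 6101 to 6709 bp up to 12 h and 4405 and 4369 bp at 24 h. Fam78a, Pdzd8 and Mid1ip1 thus differed mainly at 24 h, whereas Mlec differed from 2 h on.

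H3K27ac, whose lists had no part in choosing the domains, was missing from many of them. No H3K27ac peak in any of the 10 lists was found in 90 domains (13.1%), beside 2.72% of the other promoter regions. A peak in 1 to 9 lists was found in 192 domains (28.0% against 8.12%), and a peak in all 10 lists in 403 (58.8% against 89.2%). The longer the domain, the more often H3K27ac was missing. Among domains of 4 to 5 kb 6.60% had none in any list, among those of 5 to 6 kb 12.3%, among those of 6 to 7 kb 21.2% and among those of 7 to 9 kb 40.0%. The median H3K27ac cover over the same classes, as a percent of the domain inside H3K27ac peaks and the mean of 10 lists, was 90.6%, 87.2%, 44.7% and 13.5%. Among all promoter regions marked in 10 lists, 0.590% of those of 2 to 3 kb and 6.93% of those under 2 kb lacked H3K27ac in every list.

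**Figure D4:**
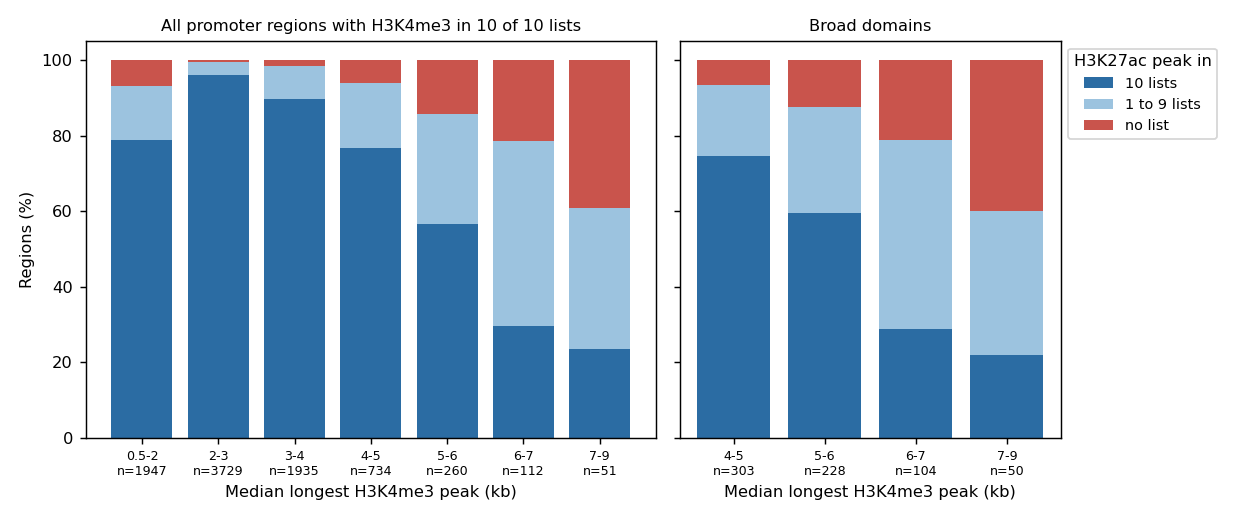
Share of regions (%) with an H3K27ac peak in all 10 lists (dark blue), in 1 to 9 lists (light blue) or in no list (red), by the median longest H3K4me3 peak in kb, for all promoter regions with H3K4me3 in all 10 lists (left) and for the domains (right). The share in all 10 lists peaked at 96.1% for regions of 2 to 3 kb and was 22.0% for domains of 7 to 9 kb.

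The H3K27ac peaks that were listed in these domains were themselves long. In the 192 domains with H3K27ac in some lists, the longest H3K27ac peak had a median of 8007.5 bp, and it was 6000 bp or longer in 90.6%. In the 403 domains with H3K27ac in all lists, the median was 6415 bp, and H3K27ac was wider than H3K4me3 in 312. Replicates disagreed on the presence of a peak in 343 of 3425 pairs of a domain and a time point (10.0%). Of the 90 domains without H3K27ac, 32 had an H3K27ac peak within 5000 bp in at least 1 list. Missing peaks thus went with longer listed peaks. Whether the lists had a limit on length, and its part in the result, was not tested.

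Named domains show this pattern. The longest domains without H3K27ac in any list included Ppp1r15b, Lyl1, Zfp36l1, Bcor, which encodes a corepressor of the Polycomb group, Sp4, Cers2, a ceramide synthase, and Zfp217, with median H3K4me3 peaks from 8217.5 to 7609.5 bp. Trp53/Wrap53, Junb, Pim1, Csf2rb2, Klf13, Ikzf1 and Rhag had none either. Runx1 had H3K27ac peaks of 7116 and 7577 bp before induction, 7782 bp in 1 list at 2 h and 6783 bp in 1 list at 24 h, and none in the other 6 lists. Arid1a had peaks of 8700 and 8479 bp at 0 h and 8624 bp in 1 list at 12 h, and none in the other 7. At Myb, the 7 listed peaks measured 8540 to 8694 bp, and 1 list each at 2, 12 and 24 h had none. Replicates of the same time point therefore stood at opposite ends of the scale. Against this, Myc had H3K27ac peaks of 6763 to 8660 bp in all lists and Hoxc4 of 6374 to 8184 bp. The mean cover of the domains was 69.0 ± 1.12% (SD, n = 2) at 0 h, 67.8 ± 0.158% after 2 h, 66.8 ± 0.178% after 6 h, 65.9 ± 1.52% after 12 h and 66.5 ± 3.11% after 24 h. That of the other promoter regions was 77.4 ± 1.03% at 0 h and 79.1 ± 1.33% at 24 h.

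Whether H3K27ac in the domains changed with differentiation was tested with limma on log2 of the H3K27ac bp inside each merged H3K4me3 region plus 200 bp, 24 h against 0 h, for 13619 regions with H3K27ac in at least 2 lists. At an adjusted p under 0.05, 178 regions (1.31%) were higher at 24 h and 150 (1.10%) were lower. Without adjustment, p was under 0.05 in 1603. Of the 685 domains, 119 did not pass the filter. Of the 566 that did, 5 were higher (0.883%) and 8 lower (1.41%), shares near those of all regions. The filter could be met through the lists of 1 time point alone, as in 5 of the 8 lower domains, which had H3K27ac only at 0 h. The median difference of the tested domains was 0.0066 on the log2 scale. With lists centred on their medians, 2 domains were higher and 8 lower, and 111 and 140 of all regions.

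The domains called higher had more H3K27ac bp from 2 h on. Icam4/Icam5 (chr9:21028757-21034253), where Icam4 encodes the Landsteiner-Wiener blood group protein of red cells, had 3921 and 3830 bp of H3K27ac at 0 h and 5204 to 5284 bp in the 8 later lists (a log2 difference of 0.43, SE 0.011, limma adjusted p = 1.28e-05). Nfe2l2 (chr2:75700281-75706193), the antioxidant regulator NRF2, had 5166 and 5292 bp at 0 h, 5588 to 5913 bp at 2 and 6 h and 5913 bp, the whole domain, in the 4 lists at 12 and 24 h (0.17, SE 0.020, limma adjusted p = 0.0129). Cnot6l (chr5:96158941-96164779), a deadenylase of mRNA, had 5254 and 5297 bp at 0 h and the whole 5839 bp in every later list (0.14, SE 0.0041, limma adjusted p = 2.20e-05). A covered length cannot exceed that of the domain, so such full values carry no spread. Zfp207, a spindle assembly protein, had 5465 and 5505 bp at 0 h and 6759 and 6969 bp at 24 h (0.31, limma adjusted p = 0.0228). Luc7l2, a splicing factor, had 3370 and 3517 bp at 0 h and 4432 and 4475 bp at 24 h (0.35, limma adjusted p = 0.0290). In all 5 the lists at 24 h lay above both at 0 h. With only H3K27ac peaks of high score, at or above the pooled median, the difference turned to -1.96 at Icam4/Icam5, -4.76 at Nfe2l2 and -4.83 at Zfp207.

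Of the 8 domains called lower, 7 had no H3K27ac peak in either list at 24 h. Alad (chr4:62513680-62521486), which makes porphobilinogen in heme synthesis, had 6633 and 6448 bp of H3K27ac before induction, 6794 and 6708 bp after 2 h, 6919 and 6947 bp after 6 h, and no peak at 12 or 24 h (a log2 difference of -5.07, SE 0.014, limma adjusted p = 3.02e-10). Its H3K4me3 peak measured 6366 and 5744 bp at 0 h and 6499 and 7568 bp at 24 h, and the absent H3K27ac peaks had measured 7061 and 7291 bp at 6 h. Tpm1 (chr9:67039711-67044744), tropomyosin of the red cell skeleton and muscle, had 4648 to 5032 bp at 0 and 2 h and no peak in the 6 later lists (-4.65, SE 0.036, limma adjusted p = 3.34e-08). Tkt, of the pentose phosphate pathway, Adk, Eif3a, a translation initiation factor, Larp1, which binds mRNAs of the translation machinery, and Tmpo, a lamina protein, had H3K27ac in both lists at 0 h and in no other, with log2 differences from -5.18 to -4.54. These 5 passed the filter through their lists at 0 h alone, and the size of such differences follows from the added 200 bp.

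At Pds5a (chr5:65694793-65699877), a cohesin regulator, H3K27ac was narrower at 24 h than at 0 h, with a peak listed in both lists at 24 h. It covered 5085 bp, the whole domain, in both lists at 0 h and 3815 and 3682 bp after 24 h (a log2 difference of -0.42, SE 0.048, limma adjusted p = 0.0120). The course between was not steady. H3K27ac covered 4200 and 3939 bp after 2 h, 4527 and 4946 bp after 6 h and 5001 and 5032 bp after 12 h. With regions limited to those with H3K27ac in at least 5 lists, 2 domains were lower (Alad and Pds5a), and with all 10 lists, 1 (Pds5a). Single lists moved these counts. Without 1 list at 0 h, 19 or 14 domains were higher and 4 or 3 lower. Without 1 list at 24 h, 19 or 25 were lower, and without 1 list at 2 or 6 h, 8 were higher. Leaving out 1 list also moved the counts of all regions, which ran from 130 to 413 higher and from 127 to 466 lower. The domain counts of these alternative fits are not set beside the share of all regions, so they show no shift particular to the domains.

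**Figure D5:**
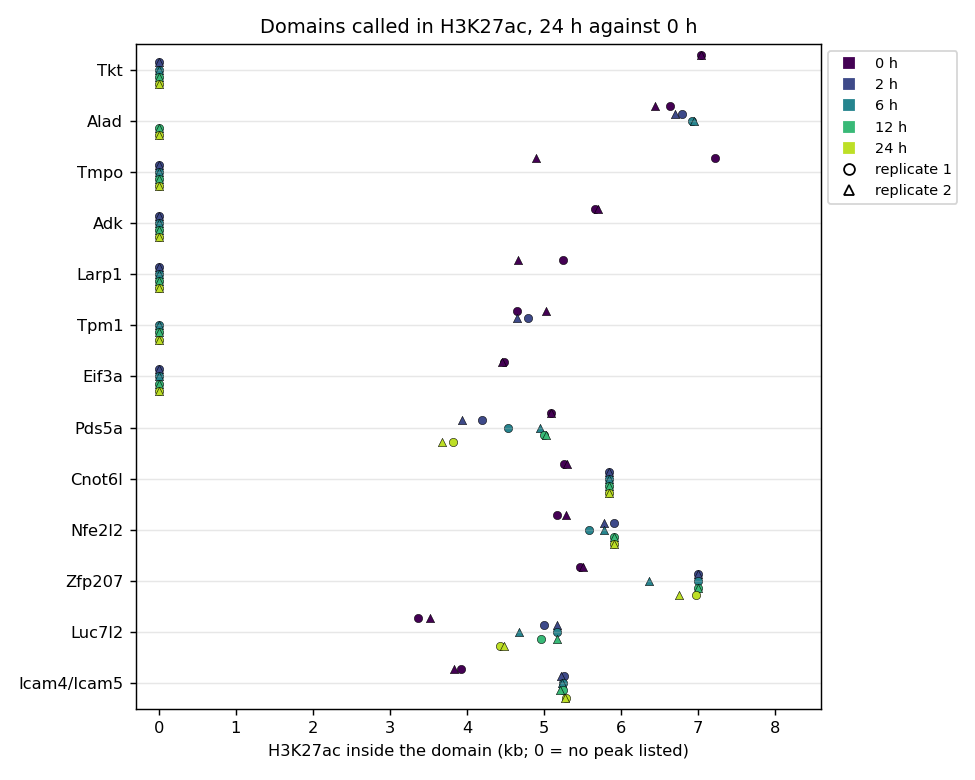
H3K27ac inside each of the 13 domains called at an adjusted p under 0.05 by limma, in kb, 1 point per list, colored by hours of β-estradiol, with circles for replicate 1 and triangles for replicate 2. In 7 of the 8 lower domains the lists at 24 h stand at 0, which means that no peak is listed, and in the 5 higher domains all later lists lie above both lists at 0 h.

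Whole H3K27ac peaks, which can extend past the domain, gave a further view in the 403 domains with H3K27ac in all lists. In this fit, chosen after the data were seen, 6 domains were higher and 1 (Pds5a) lower. The higher ones were Icam4/Icam5, Nfe2l2, Fbxw7, Cul4a/Pcid2, Sptb and Lmo2. These counts are not set beside the share of all regions called in this fit, so they show no excess among the domains. Sptb had H3K27ac peaks of 5332 and 4746 bp before induction, 8001 and 8716 bp after 12 h and 8766 and 8375 bp after 24 h (log2 difference 0.75, limma adjusted p = 0.0171). In the main test it did not pass (0.58, limma adjusted p = 0.104), and of 24 settings it passed as higher in 5 and as lower in 1 (adjusted p from 2.67e-06 to 0.305). Lmo2 had peaks of 5500 and 4593 bp before induction, 7730 and 7515 bp after 12 h and 7344 and 8309 bp after 24 h (0.62, limma adjusted p = 0.0232), against 0.18 and limma adjusted p = 0.552 in the main test, and of 24 settings it passed as higher in 2 and as lower in 1 (adjusted p from 1.08e-06 to 0.935). The lower calls and the smallest of these p-values came with only H3K27ac peaks of high score, at or above the pooled median, where the differences were -4.64 at Sptb and -4.71 at Lmo2. H3K4me3 at both genes was also longer at 24 h in both lists, as it was in 160 domains (23.4%). Since H3K4me3 length chose the domains, this is no separate support for the H3K27ac calls. Of the gene lists, 1 domain of the heme and membrane list (Alad) was lower in the main test. In the other 7 lists, 61 domains were tested by limma, 0 passed, and 5 had an unadjusted p under 0.05. Of all 566 tested domains, 13 passed and 72 had an unadjusted p under 0.05. Of all 13619 regions these were 328 and 1603.

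CTCF peaks were found in 329 of the domains (48.0%) at 0 h and in 401 (58.5%) at 24 h, beside 31.9% and 41.1% of the other promoter regions. The whole lists held 33193 peaks at 0 h and 41473 at 24 h, with 1 list each, so no test between times was possible. Domains are longer than other promoter regions, and per length they held fewer peaks, with 90.2 per Mb against 111 at 0 h and 111 against 141 at 24 h. Within 2 kb of the TSS, a window of equal size for all, the shares were 38.7% and 34.7% at 0 h and 51.1% and 44.2% at 24 h. CTCF was present at both times in 309 domains, at 24 h only in 92, at 0 h only in 20 and at neither in 264. The summits of the TSS profile were 18.2% of the domains and 21.1% of the others. From 2 to 4 kb into the gene, 5.77% to 7.47% of the domains at the points 2, 3 and 4 kb were inside a CTCF peak, beside 3.11% to 3.51% of the others. The domains with the most CTCF peaks were Fam198b (chr3:79883186-79890590), with 3 at each time, Ptger4 (chr15:5236413-5245268), a prostaglandin receptor, with 2 at 0 h and 3 at 24 h, and Irgm1 (chr11:48868155-48874876), an interferon-inducible GTPase, with 3 and 2. Lyl1 and Cers2 had 2 at each time and came before further such domains by their length.

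The domains differed from other promoters in CpG content around the TSS and in the number of genes. CpG island-like stretches, in windows of 200 bp with at least 50% GC and a CpG observed over expected ratio of at least 0.6, covered a median of 1702 bp of the 4 kb around the TSS in the domains and 1089 bp in the others. In the same window the CpG observed over expected ratio was 0.621 against 0.466 and the GC content 52.1% against 49.0%. Over the whole regions both densities were lower in the domains. The GC content was 49.6% against 50.5%, and island-like stretches made up 31.1% of the domain against 36.2%. Among the domains length and island-like bp were only weakly related (Spearman's rho 0.163 across 685 domains), and across all 8777 promoter regions rho was 0.599, where both quantities share the region's length. Runx1 had 4262 bp of island-like sequence in its domain, and Irgm1 had 699 bp with a median peak of 6498 bp.

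Promoters of 2 genes made up 21.5% of the domains and 12.5% of the others, and divergent pairs with TSSs within 1000 bp 16.8% and 10.1%. Gene length was alike, with medians of 26.9 and 24.9 kb. A median of 79.5% of the domain lay in gene bodies and 18.6% in exons. The 250 bases before the TSS were searched on both strands for the GATA motif AGATAA, the KLF motif CCACACCC, the E-box CAGCTG and the TATA box TATAAA, each counted on its own where motifs overlap. AGATAA was found in 4.96% of the domains, 5.83% of the other promoter regions and 8.79% of all 21853 protein-coding promoters. CCACACCC was found in 2.04%, 3.70% and 3.51%, CAGCTG in 7.59%, 10.6% and 12.2%, and TATAAA in 6.13%, 5.64% and 11.4%.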

How the data were processed

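ChIP-seq peak lists were analyzed for H3K4me3 and H3K27ac (5 time points, 2 lists each) and CTCF (2 time points, 1 list each), in 12 groups taken from the sample titles. Reads were aligned to mm10 with Bowtie2 by the authors, uniquely mapped reads were kept, and peaks were called per library with MACS without its model step. The MACS version, control and threshold are not given in the sources used here, nor is the peak calling for CTCF. The deposited score, at least 50.0, is the authors' value, probably minus 10 times log10 of the p-value, and served only for ranking and filtering. The sample descriptions name a human build, but the positions are those of mouse. The deposited files hold no counts of reads, so depth and counting precision are unknown.

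TSSs came from GENCODE vM21 (GRCm38) and bases from RefSeq GRCm38. Peak length is end minus start. H3K27ac was tested with limma 3.58.1 (lmFit, eBayes with trend) in R 4.3.3, with 5 group means, 1 per time point, two-sided, on log2(bp + 200), with Benjamini-Hochberg adjustment over all 13619 regions. The step was tested on simulated data. Values that are either a long peak or 0 depart from the noise that limma assumes, so its p-values understate false calls there. The 685 domains and the gene lists were chosen with earlier results of these data known. Named were the 10 longest domains, called domains (at most 8 a direction), the 8 longest of those with the lowest H3K27ac cover, the 5 with most CTCF peaks, 5 on either side of the length threshold, and list members. Windows with annotated exons were passed over for printing. A few named items and 1 window that these rules select are not reported here. Alternatives covered score filters, pseudocounts, list minimums, centring, merging, thresholds and leaving out lists. Other features were described without a test in Python 3.11.15.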

Additional observations from a re-analysis of the deposited data

How the results depend on the processing

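The H3K27ac test called 178 regions higher and 150 lower, of which 5 and 8 were domains. Lists centred on the median gave 111 higher regions and 2 higher domains. Fitting the 4 lists of these time points alone gave 328 lower regions, 19 higher domains and 27 lower. A score filter at the pooled median gave 1 higher domain, and the summed length of touching H3K27ac peaks 3. At least 5 lists with H3K27ac gave 2 lower domains. Domain counts given without those of all regions show no shift particular to the domains. The next filters were chosen after seeing the data. H3K27ac in all 10 lists gave 98 higher regions, 38 lower and 1 lower domain, and the same with summed peak length also gave 1 lower domain. Leaving out 1 list gave 130 to 413 higher and 127 to 466 lower regions, and 5 to 19 higher and 3 to 25 lower domains. Same-numbered lists did not deviate together (correlations from -0.035 to 0.054), and the replicate block gave 137 higher and 138 lower regions, and 4 and 9 domains. Under the score filter, the log2 difference turned to -1.96 at Icam4/Icam5, -4.76 at Nfe2l2 and -4.83 at Zfp207.

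The 685 domains became 2155 at 3000 bp, 221 at 5000 bp, 169 with the score filter and 689 to 754 without 1 list. Their mean H3K27ac cover of 67.2% was 46.3% with the score filter, 77.6% for domains of 3000 bp and 48.9% for those of 5000 bp. The score filter left 146 domains with CTCF at 0 h and 234 at 24 h. The cause of these shifts was not tested. Depth is unknown, and 2 lists per time point, with peaks of at most 9200 bp, limit what an absent peak can show.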

Other observations

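A set of broad promoters failed the rule because 1 or more lists held no peak there. In 35 promoter regions, the peaks were 4000 bp or longer in each of 5 to 9 lists that had one and were absent from the others, and in 20 of them only 1 list lacked a peak. The longest peak of these regions had a median of 8524 bp (range 4644 to 9040). They held genes of erythroid cells, named here after their values were seen. Kit, the receptor for stem cell factor, had H3K4me3 peaks of 8839 and 8827 bp at 0 h, 8533 bp in 1 list at 2 h, 8662 and 8749 bp at 6 h, 8397 bp in 1 list at 12 h and 8667 and 8514 bp at 24 h, and none in the other list at 2 and at 12 h. Hes1, a Notch target, had 8545 to 8811 bp in 9 lists and none in 1 list at 0 h. Car2, a red cell carbonic anhydrase, had 7312 to 8652 bp in 9 lists and none in 1 list at 0 h. Gfi1b, a repressor needed for erythroid cells, had 7743 to 8617 bp in 9 lists and none in 1 list at 24 h. Nfe2, a regulator of globin genes, had 6926 to 7533 bp in 9 lists and none in 1 list at 2 h. Zfpm1, the GATA1 partner FOG1, had 6316 to 7924 bp in the 8 lists up to 12 h and none in both lists at 24 h. In most of these cases the replicate of the same time point held a long peak, whereas at Zfpm1 both lists lacked it. Zfpm1 was not alone in this among the 35 regions. Both lists at 24 h also lacked a peak at Foxo3 and Ache, among others. Both lists at 0 h lacked one at Slc41a3 and Hoxc5/Hoxc6, among others.

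A further 30 regions had H3K4me3 peaks of 4000 bp or longer in all 10 lists without a protein-coding TSS and were not described here.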
